A study of Mus musculus with 12 samples.

Results

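The receptor chains for IL-5, IL-3 and GM-CSF are 5 genes in the mouse, Il5ra, Il3ra, Csf2ra, Csf2rb and Csf2rb2, and they were taken by symbol from the 23362 genes counted in every library. Each of these cytokines binds its own alpha chain, encoded by Il5ra, Il3ra or Csf2ra, and the bound alpha chain then pairs with a beta chain that carries the signal. Csf2rb encodes the common beta chain used by all of the cytokines, and Csf2rb2 encodes a second beta chain, found in the mouse, that serves IL-3 alone. The beta chain is bound by the kinase JAK2, which activates STAT5. In bone marrow IL-5 is best known for driving the growth and survival of eosinophil precursors, while IL-3 and GM-CSF act on a wider range of myeloid cells.

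The 12 libraries were made from C57BL/6 cells in 4 groups of 3. GMP WT and GMP KO are granulocyte-monocyte progenitors, wild type and Xbp1-deficient, collected by sorting straight into lysis reagent without culture. GATA2-GMP WT and GATA2-GMP KO are sorted progenitors of the same genotypes that were transduced with GATA2, sorted again and grown for 48 h. GATA2 is a transcription factor that directs such progenitors toward eosinophils, and XBP1 is a factor that raises the secretory capacity of a cell under protein folding stress. The allele of Xbp1, the driver of its deletion, the vector, the cytokines in the culture and the age of the mice are not given in the sources used here. Libraries of the uncultured cells were prepared with a TruSeq kit, whereas those of the cultured cells were first amplified with a SMARTer low-input kit. Transduction, culture, second sort and kit therefore change together between the stages and cannot be told apart.

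Between 8220484 and 33645602 reads were assigned to genes per library, and 13885 to 16455 genes had at least 1 read. Xbp1, the targeted gene, was at 131, 134 and 153 CPM (reads scaled to a common library size) in GMP WT and at 89.8, 55.9 and 56.8 CPM in GMP KO. It was at 381, 269 and 197 CPM in GATA2-GMP WT and at 99.9, 122 and 128 CPM in GATA2-GMP KO. Each KO library was below each WT library of its stage, although which exons the deletion removes is not given, so the remaining reads do not measure how complete it was. The granule genes of the labelled cells were present: the neutrophil and monocyte progenitor gene Mpo was at 18141 ± 1260 CPM (SD, n = 3) in GMP WT, and the eosinophil gene Prg2 was at 142268 ± 31193 CPM in GATA2-GMP WT. The third GATA2-GMP WT library stood apart from its group in Kit, at 100.3 CPM against 31.3 and 28.6 CPM, and in multiply aligned records, at 40.3% against 49.1% and 52.3%. The third GATA2-GMP KO library also stood apart, in Kit at 113 CPM against 200 and 195.5 CPM, and in multiply aligned records at 55.0% against 48.4% and 48.1%. Within the cultured cells, the KO against WT fold changes of the receptor chains are given with and without each of them. Those of other genes and of marker lists are given with all libraries.

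The genes for the alpha chains lie on separate chromosomes. In the mm9 build Il5ra is at chr6:106660378-106695103 on the minus strand, Il3ra is at chr14:15179009-15188004 on the plus strand, and Csf2ra is at chr19:61300305-61304321 on the minus strand. The beta chain genes are neighbours, with Csf2rb2 at chr15:78112947-78136052 on the minus strand and Csf2rb at chr15:78156420-78184277 on the plus strand, and 20367 bases separate them. They are also near copies. Their coding sequences were identical at 2506 of 2629 aligned bases (95.3%), with 1 identical run of 242 bases. The pair below shows a 90-base coding stretch with the median number of differences, 3, taken from chr15:78169236-78169325 (plus strand) for Csf2rb and chr15:78124866-78124955 (minus strand) for Csf2rb2 in mm9. Capitals mark the bases that differ.
Csf2rb: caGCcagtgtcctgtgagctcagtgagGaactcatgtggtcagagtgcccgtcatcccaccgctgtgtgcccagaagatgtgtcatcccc
Csf2rb2: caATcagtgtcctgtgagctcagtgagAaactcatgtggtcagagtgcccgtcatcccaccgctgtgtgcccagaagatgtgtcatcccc

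The stretch with the most differences, 16 of 90 bases, lies beside it in both genes, at chr15:78169327-78169416 (plus strand) and chr15:78124775-78124864 (minus strand). Among the gap-free 90-base coding stretches compared, it is where reads of the copies are easiest to tell apart. Untranslated parts were not compared in this way.
Csf2rb: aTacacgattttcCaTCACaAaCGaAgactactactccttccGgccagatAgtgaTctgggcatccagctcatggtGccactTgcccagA
Csf2rb2: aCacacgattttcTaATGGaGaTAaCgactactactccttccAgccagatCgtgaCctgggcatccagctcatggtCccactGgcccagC

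Over the longest transcript of each gene, 33.4% of the 25-base windows of Csf2rb and 34.1% of those of Csf2rb2 occurred unchanged in the other gene. At 50 bases the shares were 18.7% and 18.9%, and at 100 bases they were 7.0% and 6.8%. A read wholly inside such a window matches both genes, and the tables set multiply aligned records apart from the gene counts. The read length is not given in the sources used here, so how many reads of each copy were set apart is unknown, and the split between the copies carries this uncertainty. The alpha chain genes shared no 25-base window with another member.

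**Figure D1:**
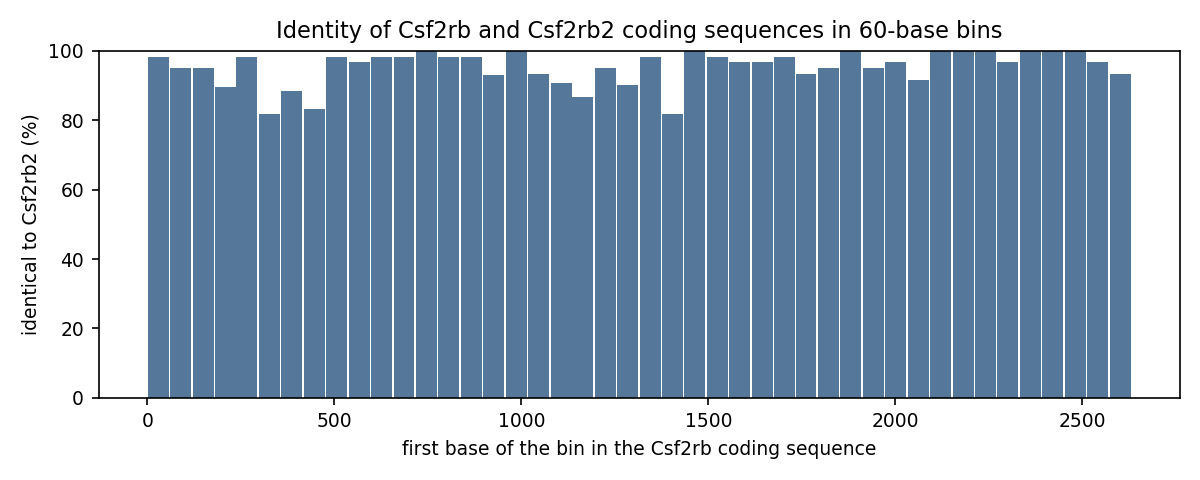
Share of bases identical between the Csf2rb and Csf2rb2 coding sequences, in bins of 60 aligned bases, against the first base of the bin in the Csf2rb coding sequence. Bars run from 81.7% to 100%, around 95.3% for the whole aligned sequence.

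Because the cells were transduced with a GATA factor, the 250 bases before the annotated start of each gene were read from the RefSeq promoter table (build GRCm38.p6), which held 4 of the 5 members. They lie at chr6:106749038-106749287 (Il5ra, minus strand), chr14:14346245-14346494 (Il3ra, plus strand), chr19:61228419-61228668 (Csf2ra, minus strand) and chr15:78305722-78305971 (Csf2rb2, minus strand). Capitals mark a match to a GATA-factor motif, searched on both strands as AGATAA or AGATAG and, with another first base, as TGATAA or TGATAG.
Il5ra: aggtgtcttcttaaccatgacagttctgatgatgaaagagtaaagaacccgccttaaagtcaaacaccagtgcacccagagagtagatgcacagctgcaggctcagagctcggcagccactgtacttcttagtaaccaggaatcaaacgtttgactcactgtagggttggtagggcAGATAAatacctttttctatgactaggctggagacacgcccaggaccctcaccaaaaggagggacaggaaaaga
Il3ra: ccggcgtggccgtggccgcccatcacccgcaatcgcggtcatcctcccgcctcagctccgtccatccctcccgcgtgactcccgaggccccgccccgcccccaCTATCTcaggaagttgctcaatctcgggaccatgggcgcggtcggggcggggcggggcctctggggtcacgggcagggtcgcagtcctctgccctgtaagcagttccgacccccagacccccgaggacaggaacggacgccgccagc
Csf2ra: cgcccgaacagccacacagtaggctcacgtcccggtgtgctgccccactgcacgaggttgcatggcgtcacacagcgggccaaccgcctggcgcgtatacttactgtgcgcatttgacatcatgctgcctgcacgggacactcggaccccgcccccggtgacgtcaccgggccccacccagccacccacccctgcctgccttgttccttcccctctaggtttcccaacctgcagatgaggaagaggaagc
Csf2rb2: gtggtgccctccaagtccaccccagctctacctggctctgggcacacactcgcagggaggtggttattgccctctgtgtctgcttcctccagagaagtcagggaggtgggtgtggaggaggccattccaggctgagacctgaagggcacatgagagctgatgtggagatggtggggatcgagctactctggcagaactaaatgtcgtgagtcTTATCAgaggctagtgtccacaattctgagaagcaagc

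The match began 74 bases before the start in Il5ra, 147 bases before it in Il3ra and 38 bases before it in Csf2rb2, and the Csf2ra window held none. Of 32851 promoter windows of this length in the table, 26.5% held a GATA-factor match. The sequence TGACGT, a core recognised by XBP1 and related factors, occurred only in the Csf2ra window, 92 bases before the start and overlapping its own reverse-strand match at 90 bases, and 6.47% of all windows held it. The genes with a match include members with higher and with lower counts after GATA2 transduction, and a match is a description of letters, not of binding.

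The order of the chains differed between the stages. Per kb of annotated exon, GMP WT held Csf2ra at 48.9 CPM, Csf2rb at 21.6, Il3ra at 20.2, Csf2rb2 at 1.57 and Il5ra at 0.307. Csf2rb and Il3ra overlapped in their ranges there, while every other step down this order was free of overlap. In GMP KO the order was the same, with Csf2ra at 58.4 CPM per kb, Csf2rb at 24.4, Il3ra at 19.4, Csf2rb2 at 1.94 and Il5ra at 0.738, and no neighbours overlapped. GATA2-GMP WT held Csf2rb at 377 CPM per kb, Csf2rb2 at 167, Il5ra at 19.5, Csf2ra at 18.8 and Il3ra at 2.10. GATA2-GMP KO held them at 469, 208, 9.62, 14.5 and 0.538 CPM per kb. In both cultured groups Il5ra and Csf2ra overlapped, and the other neighbours did not. The GM-CSF receptor alpha chain thus led the family in uncultured progenitors and the common beta chain led it in the cultured cells.

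**Figure D2:**
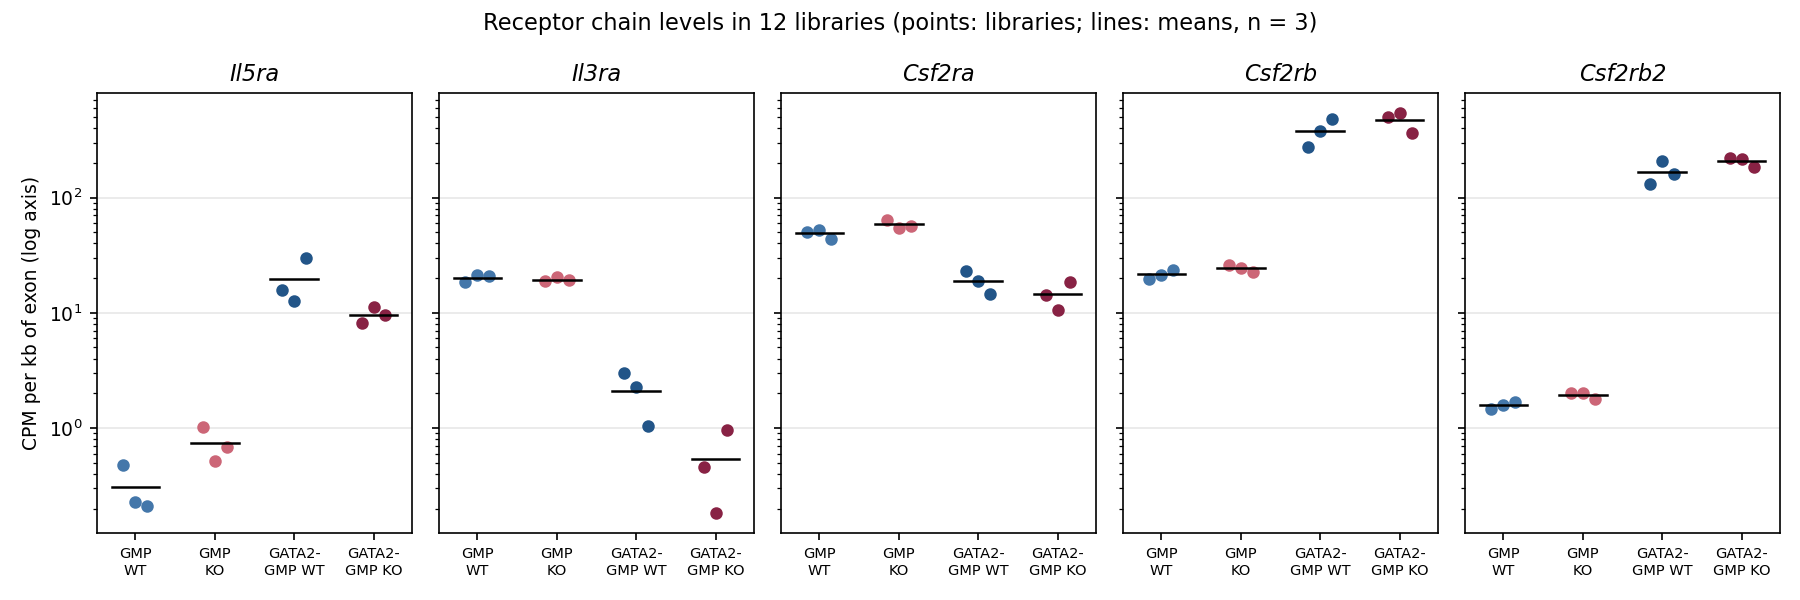
Level of each receptor chain in CPM per kb of exon, on a log axis, in the 12 libraries. Points are libraries and lines are the means of 3. Il5ra, Csf2rb and Csf2rb2 sit higher in all GATA2-GMP libraries than in any GMP library, and Il3ra and Csf2ra sit lower.

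From uncultured to GATA2-transduced cells, all 5 chains changed in both genotypes, by edgeR's quasi-likelihood test with Benjamini-Hochberg adjustment over all genes and a threshold of 0.05. Il5ra, Csf2rb and Csf2rb2 rose and Il3ra and Csf2ra fell. This is read against a background in which 70.5% of 12251 genes passed in WT (34.1% higher and 36.4% lower) and 78.6% of 12438 in KO (38.6% and 40%), so passing the test does not set the family apart. The median log2 change of the 5 members was 4.13 in WT and 3.72 in KO, against -0.092 and -0.055 for all genes. With 3 members higher and 2 lower, this median is only the smallest rise, that of Csf2rb in WT and of Il5ra in KO. It does not describe a rise of the whole family. With library totals alone in place of TMM factors, the median of all genes moved to -0.93 in WT and -0.73 in KO, and the calls moved from 4176 higher and 4462 lower to 2501 and 6816 in WT, and from 4801 and 4976 to 3273 and 6681 in KO. The members kept their directions under that scaling, and relative to the median of all genes their changes differed little, as for Csf2ra in WT at -1.28 with TMM factors and -1.29 without.

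Among the alpha chains, Il5ra was nearly unread in progenitors. It was at 1.58, 0.758 and 0.700 CPM in GMP WT, from 37, 19 and 14 reads. It was at 52.2, 41.7 and 99.0 CPM in GATA2-GMP WT. The lowest cultured library was thus far above the highest uncultured one, as such an absence of overlap in either direction held for 77.2% of genes in WT and 82.4% in KO, and the third cultured library was the highest of its group. The log2 fold change was 5.98 ± 0.48 (SE), with an adjusted p of 2.54e-05 by edgeR, or 63.1-fold. In the KO cells Il5ra was at 3.36, 1.70 and 2.24 CPM before transduction and culture and at 26.8, 37.0 and 31.3 CPM after. These groups did not overlap either, and the log2 fold change was 3.72 ± 0.28 (adjusted p = 3.55e-06 by edgeR), or 13.1-fold.

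Il3ra, the IL-3 alpha chain, was steady among uncultured libraries, at 25.7, 29.5 and 29.3 CPM in GMP WT and at 26.2, 28.5 and 26.6 CPM in GMP KO. It was at 4.18, 3.14 and 1.46 CPM in GATA2-GMP WT and at 0.642, 0.256 and 1.35 CPM in GATA2-GMP KO. The last of these rest on 11, 4 and 18 reads. Every cultured library was below every uncultured library of its genotype. It fell by 3.28 ± 0.35 on the log2 scale in WT (adjusted p = 9.89e-05 by edgeR), a 9.69-fold difference. In KO it fell by 5.20 ± 0.38 (adjusted p = 3.20e-06 by edgeR), a 36.8-fold difference.

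Csf2ra, the GM-CSF alpha chain, was at 93.1, 97.2 and 81.2 CPM in GMP WT and at 43.0, 34.6 and 26.9 CPM in GATA2-GMP WT. In KO it was at 119, 100 and 105 CPM before and at 26.1, 19.6 and 34.5 CPM after. The stages did not overlap in either genotype. Csf2ra fell by 1.37 ± 0.20 on the log2 scale in WT (adjusted p = 4.98e-04 by edgeR) and by 2.01 ± 0.21 in KO (adjusted p = 2.51e-05 by edgeR). It is the member with the smallest stage difference, 2.59-fold in WT and 4.02-fold in KO.

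Both beta chains rose, by 17.5-fold and 107-fold in WT. Csf2rb, the common chain, was at 100.5, 109 and 120 CPM in GMP WT and at 1401, 1919 and 2415 CPM in GATA2-GMP WT. In KO it was at 131, 124 and 116 CPM before and at 2545, 2721 and 1860 CPM after. Its log2 fold change was 4.13 ± 0.26 in WT (adjusted p = 9.81e-06 by edgeR) and 4.27 ± 0.21 in KO (adjusted p = 3.78e-07 by edgeR). In the cultured cells it ranked 214th from the top in WT and 147th in KO by CPM per kb, among 15877 and 17013 genes with a read in the group.

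Csf2rb2, the IL-3-specific chain, was at 6.79, 7.26 and 7.75 CPM in GMP WT and at 612, 967 and 747 CPM in GATA2-GMP WT. In KO it was at 9.36, 9.26 and 8.33 CPM before and at 1029, 1006 and 855 CPM after. Its log2 fold change was 6.74 ± 0.26 in WT (adjusted p = 2.15e-06 by edgeR) and 6.75 ± 0.18 in KO (adjusted p = 8.64e-08 by edgeR), or 107-fold in each. In KO only 4 of the 12438 genes tested had a smaller p-value. With the reads of both beta chains added into 1 row, the pair rose by 4.53 ± 0.25 in WT (adjusted p = 6.24e-06) and by 4.66 ± 0.20 in KO (adjusted p = 2.39e-07). The IL-3-specific beta chain therefore rose in the same libraries in which the IL-3 alpha chain fell. In bulk samples, fewer cells of a type and less RNA per cell cannot be told apart.

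Markers of the mature lineages differed between the stages as well, by edgeR, where 34.1% of all genes rose and 36.4% fell in WT, and 38.6% and 40% in KO. Of the eosinophil markers, 12 of 12 tested rose in WT and 10 of 12 in KO, with median log2 changes of 8.61 and 5.33. Of the mast cell and basophil markers, 10 of 10 rose in WT and 11 of 11 in KO, with medians of 5.96 and 6.94. Of the 13 neutrophil markers, 9 rose and 4 fell in each genotype, with medians of 7.61 and 7.29. Those that fell were Mpo, Elane, Prtn3 and Ctsg, which encode primary granule proteins made from the progenitor stage on. Of the 11 monocyte markers tested, 4 rose and 6 fell in WT and 5 rose and 6 fell in KO, with medians of -3.15 and -2.80. Their part in the changes of the receptor chains was not tested.

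**Figure D3:**
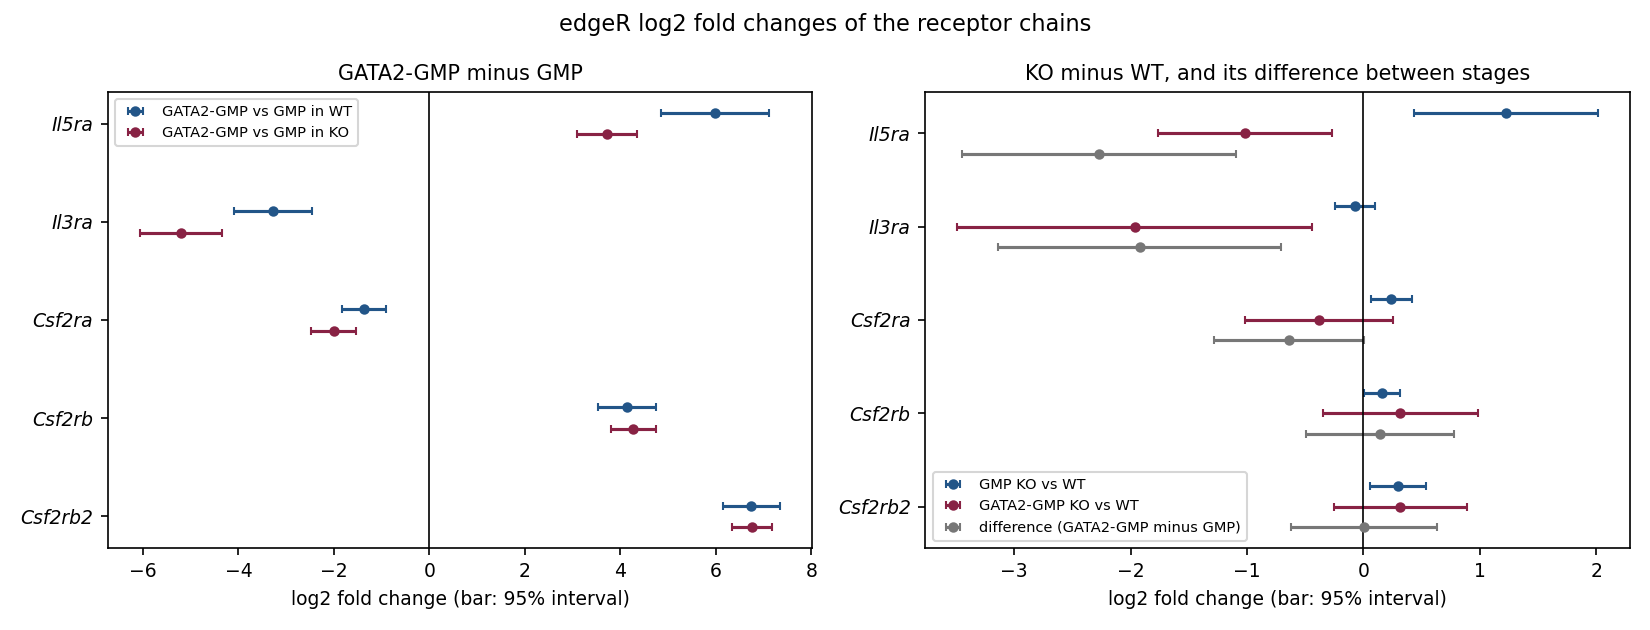
edgeR log2 fold changes of the 5 receptor chains with 95% intervals, for the stage comparisons (left) and for KO against WT within each stage with the difference between stages (right). On the left every interval lies to one side of 0, from -5.20 for Il3ra to 6.75 for Csf2rb2 in KO. On the right the Il5ra estimates lie at 1.23 in GMP and -1.02 in GATA2-GMP.

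Ratios within a library need no scaling between libraries. Csf2ra made up 72.7%, 71.1% and 67.4% of the alpha chain reads per kb in GMP WT, and Il3ra made up 26.6%, 28.6% and 32.3%. Il5ra held 0.692%, 0.311% and 0.326% there, and 1.21%, 0.688% and 0.890% in GMP KO. In GATA2-GMP WT the Il5ra share was 37.6%, 37.6% and 65.9%, and in GATA2-GMP KO it was 35.8%, 51.0% and 32.6%. The stages did not overlap, while the genotypes did at each stage. With 3 libraries against 3, an exact two-sided permutation test cannot go below p = 0.1, and it gave that value for the stage difference of 46.6 percentage points in WT and of 38.9 in KO (adjusted p = 0.15 over 12 tests). Between KO and WT the Il5ra share differed by -7.22 percentage points in GATA2-GMP (exact permutation p = 0.5), by 2.19 points in the other direction without the third WT library, and by -3.64 points without the third KO library.

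The balance of beta to alpha chains turned over between the stages. The summed beta chain reads per kb were 0.307, 0.311 and 0.388 times those of the alpha chains in GMP WT and 0.331, 0.352 and 0.322 times in GMP KO. They were 9.70, 17.5 and 14 times the alpha chains in GATA2-GMP WT and 31.9, 34.3 and 18.9 times in GATA2-GMP KO. The KO libraries were above all the WT libraries in the cultured cells, by 1.04 on the log2 scale, at the smallest p that the exact permutation test allows (p = 0.1, adjusted p = 0.15). The log2 difference of alpha to beta was -1.04, and it was -1.08 without the third WT library and -1.31 without the third KO library. In GMP the log2 alpha to beta ratio was 1.58 ± 0.19 (SD, n = 3) in WT and 1.58 ± 0.07 in KO, and the groups overlapped (exact permutation p = 1).

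A further ratio, chosen after its values were seen, is the share of Csf2rb2 among the beta chains. It was 6.89%, 6.81% and 6.62% in GMP WT, 7.24%, 7.57% and 7.31% in GMP KO, 32.4%, 35.6% and 25.3% in GATA2-GMP WT and 30.7%, 28.8% and 33.5% in GATA2-GMP KO. In the cultured cells the genotypes overlapped, with means of 31.1% in WT and 31.0% in KO. In GMP each KO library was above each WT library, by 0.603 percentage points on average (exact permutation p = 0.1, adjusted p = 0.15). Both copies are counted only where they differ, so these shares describe the counted reads.

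**Figure D4:**
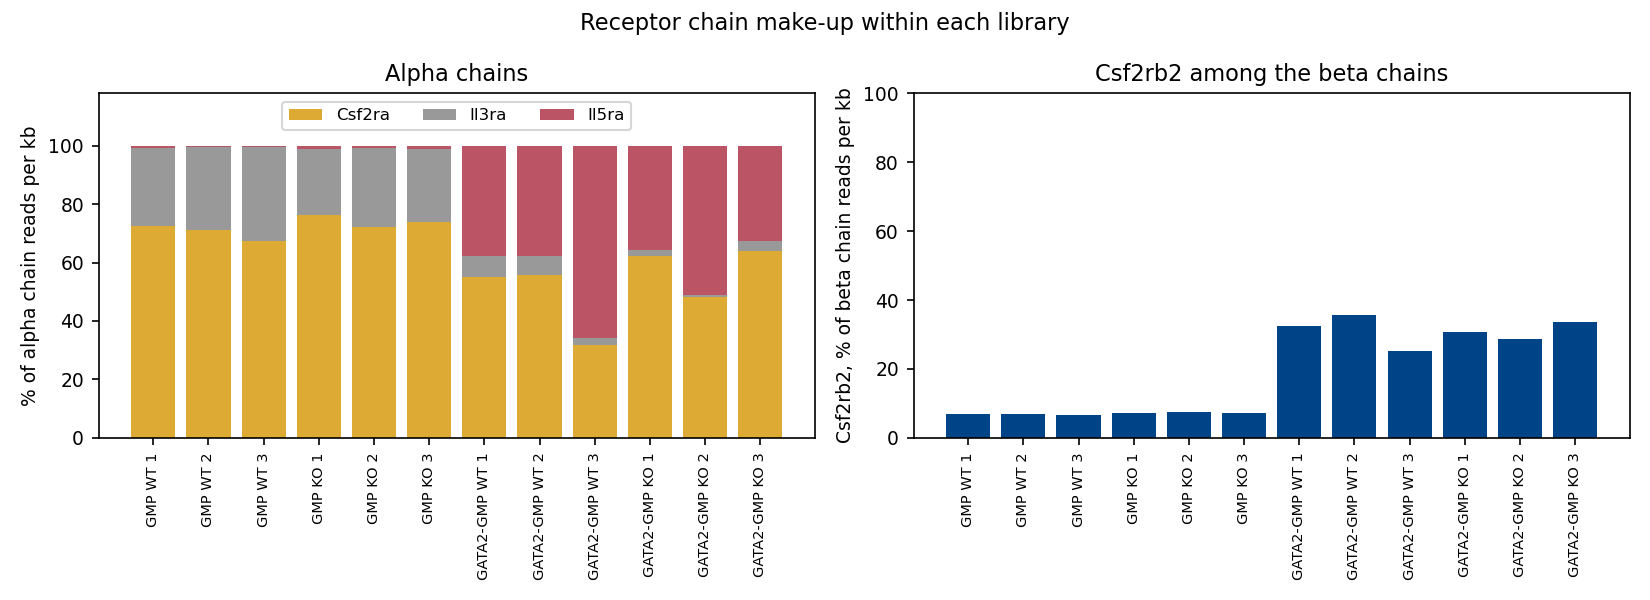
Make-up of the receptor chains within each of the 12 libraries, in percent of reads per kb. The left bars split the alpha chains, where Il5ra takes at most 1.21% in GMP and between 32.6% and 65.9% in GATA2-GMP. The right bars give Csf2rb2 as a share of both beta chains, which is 6.62% to 7.57% in GMP against 25.3% to 35.6% in GATA2-GMP.

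In uncultured progenitors, the question is how Xbp1 deficiency related to the receptor chains. No member passed the threshold in the fit of group means by edgeR, where 3.17% of all 12002 genes did, 79 higher and 302 lower in KO (144 and 254 with library totals alone). At an unadjusted p under 0.05 there were 4 members, all with higher counts in KO, against 14.5% of all genes, and DESeq2 called 1 member, against 4.06% of all genes. In 3 members, Il5ra, Csf2ra and Csf2rb2, each KO library was above each WT library, as in 11.3% of all genes.

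Il5ra was at 3.36, 1.70 and 2.24 CPM in GMP KO and at 1.58, 0.758 and 0.700 CPM in GMP WT. The groups did not overlap, and they rest on 25 to 94 and 14 to 37 reads. The log2 fold change was 1.23 ± 0.36 with an adjusted p of 0.115 by edgeR. The labels do not pair the GMP libraries, and a pairing by replicate number was taken from these same data. With that number as a block in edgeR the change was 1.22 ± 0.23 with an adjusted p of 0.00225, where 8.03% of all genes passed. That p-value is therefore not an independent check. DESeq2 gave an adjusted p of 0.041, and the edgeR fit passed without the first WT library (adjusted p = 0.0337) and without the second KO library (adjusted p = 0.0382). Over all genes these edgeR fits called 271 of 12141 and 370 of 12127. Il5ra was at an adjusted p of 0.258 to 0.313 without any other single library. It was at 0.975 in 1 fit of all 12 libraries, which called 17 of 12803 genes. The other members differed by less. Csf2ra was at 0.24 ± 0.08 (adjusted p = 0.169), Csf2rb at 0.16 ± 0.07 (adjusted p = 0.33), Csf2rb2 at 0.30 ± 0.11 (adjusted p = 0.229) and Il3ra at -0.07 ± 0.08 (adjusted p = 0.734) on the log2 scale by edgeR. The 95% interval of the Il3ra difference ran from -0.24 to 0.10.

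The sum of eosinophil marker levels was also higher in these GMP KO libraries. The summed level of the 13 eosinophil markers ranged from 96.7 to 289 CPM in GMP WT and from 333 to 661 CPM in GMP KO, without overlap, and only Ear10 had no read. Epx, the eosinophil peroxidase gene, was at 42.0, 27.2 and 13 CPM in WT and at 121, 58.3 and 62.6 CPM in KO. Prg2, which encodes eosinophil major basic protein, makes up most of the sum, at 184, 102 and 31.4 CPM in WT and at 462, 247 and 220 CPM in KO. Of the 8 markers tested in GMP, 0 passed by edgeR or DESeq2 and 1 had an unadjusted p under 0.05, against 14.5% of all genes. Their median log2 change was 0.08, against 0.01 for all genes. The sums of the 13 mast cell and basophil markers overlapped, at 329 to 362 CPM in WT and 291 to 343 CPM in KO, with Mcpt1, Mcpt4 and Tpsab1 at 0 in both groups and Tpsb2 at 0 in KO. Of the 7 tested, 1 rose by edgeR, Fcer1a, the alpha chain of the high-affinity IgE receptor, and DESeq2 called 2 higher. The block by replicate number, a pairing taken from these same data, called 2 higher and 1 lower, and the median log2 change was -0.12. Among all genes in GMP, edgeR called 3.17%, DESeq2 4.06% and the block 8.03%.

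The 13 neutrophil markers overlapped between the genotypes, at 24583 to 27154 CPM in GMP WT and 21074 to 25233 CPM in GMP KO, with none at 0. Of the 12 tested, Cd177 rose and Elane, the neutrophil elastase gene, fell by edgeR. DESeq2 called 2 higher and 2 lower, the block called 7 higher and 2 lower, and the median log2 change was 1.19. The 13 monocyte markers overlapped as well, at 1869 to 2317 and 1892 to 2679 CPM, with none at 0. Of the 11 tested, edgeR called 0 (2 at an unadjusted p under 0.05), DESeq2 called 1 higher and the block 3 higher, with a median of 0.25. These counts stand against 3.17% of all genes by edgeR, 4.06% by DESeq2 and 8.03% by the block. An unadjusted p under 0.05 held for 14.5% of all genes. The pairing behind the block was taken from these same data. The part of marker content of any of these cell types in the Il5ra difference was not tested.

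In the GATA2-transduced cells the means of the alpha chains were lower in KO and those of the beta chains were higher, but no member passed by edgeR, where 0.376% of 11699 genes did, 12 higher and 32 lower (17 and 20 with library totals alone). At an unadjusted p under 0.05 there were 2 members, Il5ra and Il3ra, both with lower counts in KO, against 14.9% of all genes, and DESeq2 called 0 where it called 4.85% of all genes. In these same 2 members each KO library was below each WT library, as in 12.3% of all genes.

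Il5ra was at 52.2, 41.7 and 99.0 CPM in GATA2-GMP WT and at 26.8, 37.0 and 31.3 CPM in GATA2-GMP KO. The closest libraries were 41.7 CPM in WT and 37.0 CPM in KO, and the third WT library lay well above the rest. The log2 difference was -1.02 ± 0.33 (adjusted p = 0.214 by edgeR), and it was -0.57 (adjusted p = 0.186) without the third WT library and -1.01 (adjusted p = 0.366) without the third KO library. Il3ra was at 4.18, 3.14 and 1.46 CPM in WT and at 0.642, 0.256 and 1.35 CPM in KO, so that the lowest WT and highest KO library nearly met. Its log2 difference was -1.96 ± 0.68 (adjusted p = 0.234 by edgeR), and it passed in 1 fit of all 12 libraries (adjusted p = 0.0167). That fit called 1461 of 12803 genes in this comparison. The Il3ra difference was -2.30 (adjusted p = 0.0814) without the third WT library and -2.67 (adjusted p = 0.26) without the third KO library. Csf2ra differed by -0.38 with a 95% interval from -1.02 to 0.26. Csf2rb differed by 0.32, from -0.35 to 0.98, and Csf2rb2 by 0.32, from -0.25 to 0.89, all on the log2 scale. Without the third WT library they differed by -0.54 (adjusted p = 0.255), 0.52 (adjusted p = 0.28) and 0.29 (adjusted p = 0.521), and without the third KO library by -0.61 (adjusted p = 0.438), 0.46 (adjusted p = 0.55) and 0.39 (adjusted p = 0.572).

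The sum of eosinophil marker levels was lower in GATA2-GMP KO. It ranged from 136194 to 207517 CPM in GATA2-GMP WT and from 56937 to 69056 CPM in GATA2-GMP KO, with no marker at 0 in either group, and the genotypes did not overlap. Of the 12 tested, 2 fell by edgeR, Ear1 and Ear2, which encode eosinophil ribonucleases, and DESeq2 called 8 lower. These calls are from all libraries of both groups, where edgeR called 0.376% of all genes and DESeq2 4.85%. Over all genes edgeR called 525 without the third WT library and 0 without the third KO library, so neither Ear gene passed in the latter. The median log2 change of the tested markers was -1.64, against -0.005 for all genes. Epx was at 18226, 8413 and 33368 CPM in WT and at 3977, 4901 and 2282 CPM in KO, with an adjusted p of 0.0974 by edgeR. The third WT library, the highest for Il5ra, was also the highest for Epx, which is the gene most like Il5ra over all libraries. For Prg2 the first WT library was the highest, at 178094 CPM against 121128 and 127583 CPM. The 13 mast cell and basophil markers overlapped, at 5177 to 14614 CPM in WT and 8696 to 14399 CPM in KO, with Mcpt4 at 0 in WT. Of 11 tested, edgeR and DESeq2 called 0, and 1 had an unadjusted p under 0.05, against 14.9% of all genes. The neutrophil markers overlapped as well, at 44563 to 75775 CPM in WT and 39598 to 64153 CPM in KO, and so did the monocyte markers, at 3365 to 8241 and 2574 to 5604 CPM. The part of these marker levels in the receptor differences was not tested.

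**Figure D5:**
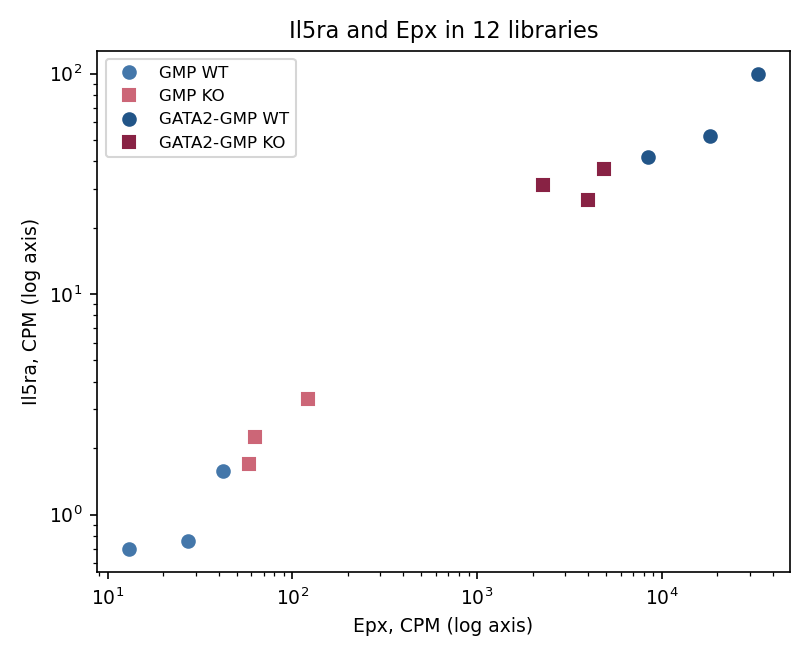
Il5ra against Epx, the gene most like it over these libraries, in CPM, both on log axes, in the 12 libraries. GATA2-GMP KO libraries lie at 26.8 to 37.0 CPM of Il5ra and 2282 to 4901 CPM of Epx, and GATA2-GMP WT libraries at 41.7 to 99.0 and 8413 to 33368 CPM.

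Whether the genotype difference itself changed with the stage was tested by the interaction term of all 12 libraries. For Il5ra the difference in GATA2-GMP minus that in GMP was -2.27 ± 0.54 on the log2 scale (95% interval -3.45 to -1.09, adjusted p = 0.096 by edgeR). Every KO library was above every WT library in GMP, as in 11.3% of all genes. In GATA2-GMP every KO library was below every WT library, as in 12.3%. The share of genes with both was not computed. For Il3ra it was -1.92 ± 0.56 (adjusted p = 0.136). None of the members passed, where edgeR called 0.0859% of 12803 genes (4 higher and 7 lower, or 8 and 7 with library totals alone). At an unadjusted p under 0.05 there were 2 members, against 14.9% of all genes, and DESeq2 called both, Il5ra at an adjusted p of 0.00217 and Il3ra at 0.0164, where it called 6.2% of all genes. By edgeR, Il5ra passed without the second (adjusted p = 0.0482) or the third GATA2-GMP WT library (-1.81, adjusted p = 0.0266), and Il3ra passed without the third (-2.26, adjusted p = 0.0129). The calls over all genes also rose there, to 127 of 13033 without the second library and 1179 of 13059 without the third. Without the third GATA2-GMP KO library Il5ra was at -2.26 (adjusted p = 0.118) and Il3ra at -2.59 (adjusted p = 0.0836). The beta chain estimates were near 0, at 0.14 for Csf2rb (95% interval -0.49 to 0.77) and 0.00 for Csf2rb2 (-0.63 to 0.63). Csf2ra was at -0.64 (-1.28 to 0.01). The stage and genotype comparisons share their libraries, so these values are not independent of those above.

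The genes whose pattern was most like each member were sought among 12798 tested genes by Pearson's r of log2 CPM over the 12 libraries. These points fall into the 2 stages and share depth and scaling, so the coefficients are descriptions. Il5ra was closest to Epx (r = 0.993), then to Cd97, an adhesion receptor, and Ppp3ca, a calcineurin subunit (0.989 each). Csf2rb was closest to Cdh17, Alox8 and Prmt2, and Csf2rb2 to Akr1c18, Cyp11a1 and Gp49a, all at 0.998. Il3ra was closest to Cdk5r1 (0.994), Zfp513 (0.993) and Lrp10 (0.992), and Csf2ra to Map2k1 (0.996), a kinase of the MAP kinase cascade, Was (0.992) and Bard1 (0.991). Among the members, Csf2rb and Csf2rb2 were at 0.997 and Il3ra and Csf2ra at 0.978.

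Over the 12 deviations from the group means, where the stage and genotype means are removed, Il3ra and Csf2ra still varied together (r = 0.913), and both varied against Csf2rb (-0.832 and -0.858). Csf2rb and Csf2rb2 were at 0.642. The deviations of a group are tied to its mean, so fewer than 12 are free. In GATA2-GMP the third libraries, which stood apart, were the extremes. Il3ra and Csf2ra were lowest in the third WT and highest in the third KO library of their groups, and Csf2rb was the reverse. How far these coefficients rest on those libraries was not tested. Il5ra followed none of the other chains closely, with values from -0.493 for Il3ra to 0.258 for Csf2rb. The genes nearest to Il5ra by this measure were Cd300lf (0.917) and Ceacam1 (0.911), both encoding inhibitory receptors of myeloid cells, and BC030476 (0.903). Those nearest to Il3ra were B2m (0.980), 4930430F08Rik (0.979) and Lztfl1 (0.977), to Csf2ra Narfl and Creld1 (0.975 each) and Map2k1 (0.972), to Csf2rb Pdxk and Sox12 (0.992 each) and Mkrn2 (0.984), and to Csf2rb2 Rnf135 (0.969), Nrp2 (0.959) and Ldlrad3 (0.953).

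The ligand genes were hardly read. Il5 had 2 reads in GMP WT, 5 in GMP KO, 11 in GATA2-GMP WT, all in the second library, and 0 in GATA2-GMP KO. Il3 had 6 reads in all, in 2 GATA2-GMP KO libraries. Csf2, which encodes GM-CSF, had no read in any GMP library. It had 0, 48 and 16 reads in GATA2-GMP WT and 49, 59 and 99 in GATA2-GMP KO, which is at least 31.8-fold higher than GMP in WT and at least 124-fold higher in KO, against the 3 reads over the group that a count of 0 allows. Of the 64 reads in WT, 48 came from the second library, and without it the bound in WT is 12.1-fold. Between KO and WT in the cultured cells the fitted difference of Csf2 was 1.81 on the log2 scale (adjusted p = 0.411 by edgeR), and the third KO library was the highest at 7.44 CPM.

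Of 35 genes of signal transduction below the receptors, 12 rose and 12 fell in WT between the stages, and 14 rose and 16 fell in KO, with median log2 changes of 0.07 and -0.05. Of all genes, 34.1% rose and 36.4% fell in WT, and 38.6% and 40% in KO. Jak2, the receptor kinase, rose by 0.97 ± 0.15 in WT and 0.71 ± 0.13 in KO on the log2 scale (adjusted p = 6.91e-04 and 6.74e-04 by edgeR). Stat5a and Stat5b, which it activates, both fell. Stat5a was at 75.2, 76.2 and 83.5 CPM in GMP WT and at 15.1, 18.2 and 32.8 CPM in GATA2-GMP WT, a change of -1.82 in WT and -2.41 in KO. Stat5b changed by -2.17 in WT and -2.0 in KO. Lyn, a Src-family kinase, rose by 0.72 and 0.41, and Ptpn6, the phosphatase SHP-1, by 0.61 and 0.63. Ptpn11, the phosphatase SHP-2, fell by 2.81 in WT and 3.63 in KO, while Ywhaz, a 14-3-3 protein, rose by 3.03 and 2.77. With library totals alone the small rises were lost: Jak2 was at 0.14 in WT and 0.04 in KO, and Lyn (-0.12 and -0.28) and Ptpn6 (-0.22 and -0.04) changed direction, none of them past the threshold. The counts of the list were then 4 higher and 18 lower in WT and 4 and 20 in KO.

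Targets and feedback genes of STAT5 rose more often than they fell, 10 higher and 4 lower of 18 in each genotype, with median log2 changes of 0.80 in WT and 0.96 in KO. Over all genes 34.1% were higher and 36.4% lower in WT, and 38.6% and 40% in KO. With library totals alone the counts of this list were 7 and 5 in WT and 8 and 7 in KO, with medians of -0.04 and 0.29. Cish, a feedback inhibitor, was at 1.32, 1.48 and 1.10 CPM in GMP WT and at 242, 212 and 251 CPM in GATA2-GMP WT. It rose by 7.49 ± 0.21 in WT and 6.87 ± 0.19 in KO on the log2 scale. Socs2, another feedback inhibitor, rose by 8.27 ± 0.42 and 6.60 ± 0.24, from 9 and 31 reads in GMP WT and GMP KO. Pim1, a survival kinase, rose by 0.59 in WT (adjusted p = 0.0221 by edgeR) but was at -0.24 with library totals alone, and in KO it was at 0.14 (adjusted p = 0.434). Id1, an inhibitor of helix-loop-helix factors, rose by 5.03 and 3.96. Bcl2, a survival gene, fell by 1.54 and 1.78. The immediate early gene Egr1 fell by 1.97 ± 0.66 in WT (adjusted p = 0.0276 by edgeR) and by 1.91 ± 0.29 in KO. In WT its stages overlapped, at 176.5, 25.9 and 113.6 CPM in GMP and at 13.1, 28.9 and 38.2 CPM in GATA2-GMP.

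Between the genotypes edgeR called 1 of the 17 of these genes tested in GMP and 0 of the 18 tested in GATA2-GMP, against 3.17% and 0.376% of all genes. At an unadjusted p under 0.05 there were 5 in GMP, all higher in KO, against 14.5% of all genes. In GATA2-GMP there were 7, 4 higher and 3 lower, against 14.9%. DESeq2 called 2 higher in GMP and 3 higher and 1 lower in GATA2-GMP, against 4.06% and 4.85% of all genes. Id1 rose by 1.0 ± 0.15 in GMP KO (adjusted p = 0.00225 by edgeR), from 2.95, 2.83 and 2.45 CPM in WT to 5.79, 5.98 and 4.75 CPM. Of the 35 signal transduction genes, edgeR called 0 in either stage, and DESeq2 likewise called none of them. At an unadjusted p under 0.05 there were 8 in GMP and 5 in GATA2-GMP, against the same 14.5% and 14.9% of all genes. Under the block by replicate number, 3 of the 35 and 4 of the 17 STAT5 genes tested were higher in GMP KO, where 8.03% of all genes passed.

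Other cytokine receptors of the tested list of 34 split in direction, with 10 higher and 15 lower of 28 tested in WT and 11 and 14 in KO (5 and 16, and 7 and 15, with library totals alone). The shares of all genes were 34.1% higher and 36.4% lower in WT, and 38.6% and 40% in KO. Il2rg, the common gamma chain, was at 32.8, 29.8 and 35.7 CPM in GMP WT and at 392, 462 and 460 CPM in GATA2-GMP WT, and it rose by 3.75 ± 0.18 in WT and 3.96 ± 0.23 in KO. Il18r1, a receptor chain for IL-18, rose by 8.05 and 8.09, from 4 and 11 reads in the GMP groups. Il7r, which had no read in GMP WT, was at least 217-fold higher in GATA2-GMP WT, and Il2ra, with none in GMP KO, was at least 285-fold higher in GATA2-GMP KO, each against 3 reads over the group. The receptors of the other colony-stimulating factors fell. Csf3r, the G-CSF receptor, changed by -4.09 in WT and -2.82 in KO, and Csf1r, the M-CSF receptor, by -3.15 and -3.24. Kit fell by 2.78 and 1.16, Flt3 by 7.31 and 5.34, Il6ra by 8.05 and 7.77 and its partner Il6st by 5.71 and 6.24. Il4ra was at 0.20 in WT (adjusted p = 0.476 by edgeR) and rose by 0.74 in KO (adjusted p = 0.00953), where library totals alone gave 0.09. The receptors read in progenitors for G-CSF, M-CSF, IL-6, IL-3 and GM-CSF were thus lower, by their alpha or single chains, in libraries where Il5ra and the beta chains were higher. Between the genotypes edgeR called 0 of this list in GMP and in GATA2-GMP, and DESeq2 called 0 and 2, against 4.06% and 4.85% of all genes. At an unadjusted p under 0.05 there were 4 and 8, against 14.5% and 14.9% of all genes.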

How the data were processed

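PolyA RNA was sequenced from 12 mouse libraries in 4 groups of 3. Per the submitters' processing notes, STAR 2.3.0, SAMtools 0.1.14, HTSeq and DESeq were used with the mm9 build; read length, strand setting and settings are not given in the sources used here. The deposited values are raw read counts per gene. Between 55.8% and 66.5% of the records of a library were given to no gene, multiply aligned ones included, and were left out. Of 27 gene names that had turned into dates in the GMP tables, 23 were restored and 4 left out. The members passed the filter on low counts in all 5 comparisons.

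Fold changes, their SE and p-values come from edgeR 4.0.16 in R 4.3.3 (filterByExpr, TMM, glmQLFit with robust=TRUE, glmQLFTest), fitted on the libraries compared, with Benjamini-Hochberg adjustment across every gene in the fit and a threshold of 0.05. SE is the size of the log2 change divided by the root of F. Levels are CPM with 1 set of TMM factors over the 12 libraries (1.28 to 1.36 in GMP, 0.688 to 0.872 in GATA2-GMP), divided by GENCODE M1 exon length where given per kb. Ratios used exact two-sided permutation tests over libraries. Alternatives were DESeq2 1.42.0, other scalings, no filter, robust=FALSE, 1 fit of all 12 libraries, a replicate block, leaving out each library, and summed beta chains. The fit was tested on simulated data.

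Any 2 libraries differed in at least 14460 genes. Nothing in the labels says that replicates came from separate animals, so p-values measure the spread between these libraries, which may be technical. In GMP, same-numbered libraries deviated together over 12803 genes (correlations 0.264, 0.193 and 0.127). The replicate block therefore took the numbers to pair them, from the data and not from the labels. It served as an alternative only, and the main fits used group means without pairing. In the other comparisons same-numbered libraries did not deviate together.

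The members and gene lists were chosen with earlier results of these data known. Genes named beside the members were the 3 most alike by each correlation, a fixed set of pathway genes and cell type markers, and the pathway genes with the largest called changes, up to 4 per list and direction between genotypes and 2 between stages. One pathway gene that this rule picks is not reported here.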

Additional observations from a re-analysis of the deposited data

Results flagged for a closer look

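The Il5ra difference between KO and WT took opposite directions at the stages, and this difference was tested by an interaction term. The change in GATA2-GMP minus that in GMP was -2.27 on the log2 scale (adjusted p = 0.096 by edgeR, from -2.75 to -1.81 when libraries were left out one at a time). All 3 GMP KO libraries were above all 3 GMP WT libraries, as in 11.3% of all genes. All 3 GATA2-GMP KO libraries were below all 3 GATA2-GMP WT libraries, as in 12.3%. The share of genes with both was not computed. The GMP values rest on 14 to 94 reads.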

How the results depend on the processing

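In the stage comparisons all 134 values of the 5 members under an alternative kept direction and call (largest adjusted p 0.00497). Genotype and interaction results kept theirs in 205 of 226. The exceptions follow, and the cause of each was not tested.

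DESeq2 called Il5ra in GMP (1.24) and in the interaction (-2.29), and Il3ra in the interaction (-1.96), so that it called 1 and 2 members. The replicate block called Il5ra in GMP (1.22), 1 member, and changed no other member's call. 1 fit of all 12 libraries called Il3ra in GATA2-GMP (-1.98), 1 member. The Csf2rb2 interaction was -0.031 with RLE scaling, -0.0332 with DESeq2 and -0.0247 with no filter, and without division by length the GMP alpha to beta difference was 0.0169.

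Leaving out 1 library gave 0.86 to 1.70 for Il5ra in GMP, -2.75 to -1.81 for Il5ra, -2.59 to -1.51 for Il3ra, -0.0443 to 0.344 for Csf2rb and -0.155 to 0.191 for Csf2rb2 in the interaction, and 0 to 1 members called in GMP and 0 to 2 in the interaction. It gave -12.8 to 2.19 points for the Il5ra share and -2.97 to 2.17 for the Csf2rb2 share (KO minus WT, GATA2-GMP), and -0.116 to 0.0532 for the GMP alpha to beta ratio.

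The count over all genes in GMP, 381, was 964 with the replicate block, 17 in 1 fit of all 12 libraries, 237 without the third WT library and 209 without the third KO library. In GATA2-GMP, 44 became 567 with DESeq2, 294 with no filter, 1461 in 1 fit, 3 with the replicate block and 0 to 525 without 1 library. In the interaction, 11 became 17 with RLE, 794 with DESeq2, 40 with no filter, 18 with robust=FALSE or summed beta chains, 0 with the replicate block and 0 to 1179 without 1 library. Same-numbered GATA2-GMP libraries correlated at -0.129, -0.233 and -0.41, and across stages between -0.037 and 0.037. Il5ra in GMP and Il3ra in GATA2-GMP KO, with 4 to 94 reads, are limited by depth.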

Other observations

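Transcription factors of the myeloid lineages moved beside the receptor chains. Of 24 listed, 9 rose and 12 fell in WT and 11 rose and 12 fell in KO from GMP to GATA2-GMP, by edgeR. Of all genes, 34.1% rose and 36.4% fell in WT, and 38.6% and 40% in KO. Gata2 itself was at 24.0, 22.5 and 39.7 CPM in GMP WT and at 282, 370 and 223 CPM in GATA2-GMP WT, where the counts do not tell the transduced copy from the gene itself. Gata1, a partner factor of the eosinophil lineage, rose by 6.62 ± 0.41 on the log2 scale in WT and 5.97 ± 0.23 in KO. Cebpa, which sustains granulocyte-monocyte progenitors, fell by 4.57 ± 0.30 and 4.77 ± 0.21. Cebpe, a factor of late granulocyte maturation, rose by 2.06 ± 0.39 and 1.25 ± 0.26. Irf8, a monocyte and dendritic cell factor, had 20068 reads in GMP WT and 9 in GATA2-GMP WT, a change of -10.48. Id2, an inhibitor of helix-loop-helix factors, rose by 8.85 and 8.47. Between the genotypes edgeR called 1 gene of this list, Id1 in GMP, which the STAT5 list also holds. It called 3.17% of all genes in GMP and 0.376% in GATA2-GMP.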
